A study of Mus musculus with 4 samples.

Results

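Transcripts of the proteasome were followed in peritoneal macrophages that lack or keep Pparg, the gene for the lipid-sensing nuclear receptor PPARγ. Members were chosen by name: every probe set with a signal that the platform annotation assigned to 1 gene whose symbol starts with Psm, a letter from a to g and a number. This gave 46 genes of 7577 with a signal, read by 53 probe sets. The groups were 4 genes of the immunoproteasome and the PA28 cap, 14 other genes of the 20S core, 20 of the 19S cap and 6 other regulators and assembly factors. The 19S group, set by the names Psmc and Psmd, includes the assembly chaperones Psmd5, Psmd9 and Psmd10. The remaining members were Psmc3ip and Psme3ip1, which encode proteins named as partners of a subunit and are no subunits themselves. Psme2, the second PA28 gene, was left out because both of its probe sets are shared with Psme2b.

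The PPARg WT and PPARg KO groups had 2 Affymetrix arrays each. Both genotypes carried a mix of the C57BL/6 and 129/SV strains, and the KO is labelled only as PPARg KO, so the deleted part, the cells that lack it and the age of the mice are not given in the sources used here. All mice had received 2.5 ml of 3% thioglycollate, an irritant that recruits monocyte-derived macrophages, and were lavaged after 3 days. The plated cells of both groups were kept for 24 h in 0.5% serum, and the protocols name no added drug or ligand. The descriptions of both replicate 2 arrays end in dup, and nothing in the labels ties replicate arrays to different animals or dishes; p-values therefore reflect array-to-array spread that may be technical only.

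The proteasome degrades proteins marked with ubiquitin. Its 20S core is a barrel of rings of α and β subunits with the cutting sites inside, and the 19S cap recognises, unfolds and feeds the substrate with a ring of ATPases. In cells exposed to interferons, and at rest in many immune cells, the catalytic subunits Psmb5, Psmb6 and Psmb7 are replaced by Psmb8, Psmb9 and Psmb10, which shifts the peptides made towards those that fit MHC class I. PA28, built from Psme1 and Psme2, is an interferon-induced cap that opens the same core.

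Each array's median signal lay between 137 and 142 units, and 12 antisense control probe sets had medians from 104 to 116. Pparg itself read 61.1 and 73.1 in WT and 43.0 and 40.6 in KO, all below those medians, and its probe set may lie outside the deleted part. Of 8 macrophage markers tested, 0 passed an adjusted p of 0.05 in either direction. In log2, 4 were lower and 4 higher in KO, with a median of 0.005. Cd14 stood at 0.19, and Msr1, at 0.16, had both KO arrays above both WT arrays. Adgre1 (F4/80) read 1429 and 1421 in WT and 1063 and 1213 in KO, with no overlap, at -0.32 in log2 (unadjusted p = 0.041, limma adjusted p = 0.46), a difference as large as that of Psmb10 or Psme1 below. The ratio of the 3′ to the 5′ probe set, a sign of RNA integrity, was 1.48 and 1.54 in WT and 1.52 and 1.44 in KO for actin. Fold changes are given as the KO mean less the WT mean of log2(signal + 16). Adjusted p-values come from limma with Benjamini-Hochberg adjustment over all 6389 probe sets tested. The number of arrays limits the precision.

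KO was compared with WT to ask whether transcripts of the proteasome differ when Pparg is missing. Signals of the immunoproteasome and PA28 genes were lower in KO by 1.24 to 1.40-fold, with a median of -0.38 in log2, against medians of -0.14 for the constitutive core and -0.08 for the 19S cap. Of 42 member genes bright enough to test, 0 passed the adjusted threshold in either direction, while 7 had an unadjusted p under 0.05, all of them lower in KO. Over all genes tested, 473 of 5002 had an unadjusted p under 0.05. Among all 5002 genes tested, 2.66% passed as lower in KO and 1.06% as higher. Psmb8, at adjusted p = 0.0504, came closest. limma took the spread from all probe sets of like brightness, and without this moderation 0 probe sets of any gene passed, with 388 at an unadjusted p under 0.05. After quantile normalization, by contrast, 5 member probe sets passed, those of Psmb8, Psmb9, Psmb10, Psme1 and Psma5.

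**Figure D1:**
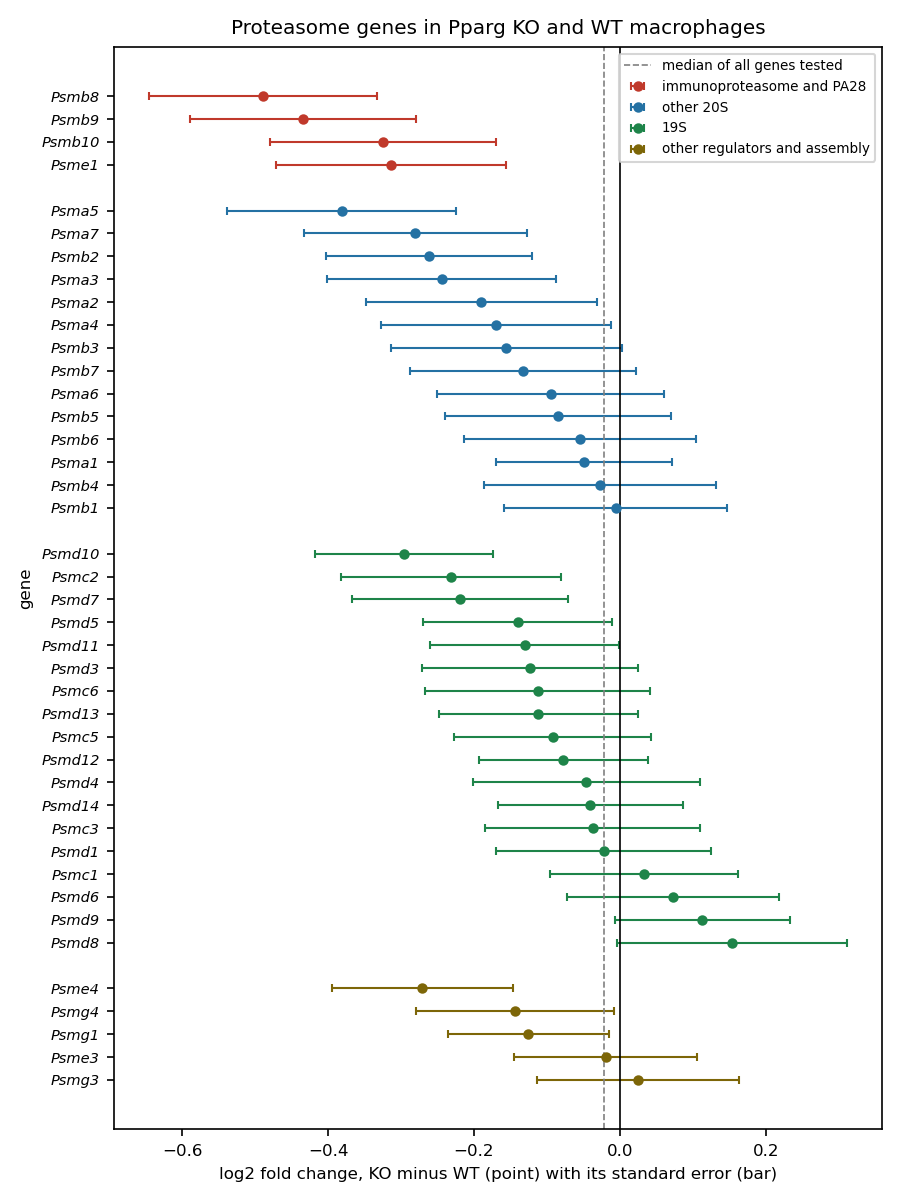
Log2 fold change of KO against WT (horizontal axis) for 41 tested proteasome genes in 4 groups (colours), with the standard error of the fit as bars and the median of all genes tested as a dashed line. The 4 immunoproteasome and PA28 genes lie between -0.49 and -0.31, and Psmd8, at 0.15, lies farthest to the right.

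Psmb8 (LMP7), the interferon-induced counterpart of the chymotrypsin-like subunit Psmb5, read 3064 and 2958 units in WT and 2014 and 2275 in KO. The genotypes did not overlap, and their gap exceeded the spread of either pair. The means were 3011 ± 74.4 and 2145 ± 184 (SD, n = 2), which is -0.49 in log2 (SE 0.16, limma adjusted p = 0.0504). Over all alternatives the adjusted p ran from 3.55e-06 to 0.9999. limma gave adjusted p = 0.035 without KO replicate 1 and 0.00017 without KO replicate 2, but 0.9997 without WT replicate 1 and 0.9999 without WT replicate 2.

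Psmb9 (LMP2), which takes the place of Psmb6, read 1006 and 1135 in WT and 687 and 900 in KO. KO replicate 1 was much lower than the other arrays, and KO replicate 2 was still under both WT arrays. The log2 fold change was -0.43 (SE 0.16, limma adjusted p = 0.11), and over all alternatives limma's adjusted p ran from 0.00047, without KO replicate 2, to 0.9999. Without KO replicate 1 the difference was -0.24 (adjusted p = 0.50).

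Psmb10 (MECL-1), which takes the place of Psmb7, read 3179 and 3600 in WT and 2404 and 3026 in KO. The KO arrays differed from each other by more than the nearest KO and WT arrays did. Its log2 fold change was -0.33 (SE 0.15, limma adjusted p = 0.43). Over all alternatives the adjusted p ran from 0.00086, after quantile normalization, to 0.9999, and it was 0.0017 without KO replicate 2. Without KO replicate 1 it was 0.65, at a difference of -0.16.

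Psme1, the α subunit of PA28, read 1389 and 1368 in WT, a close pair, and 991 and 1234 in KO. Again both KO arrays lay under both WT arrays, with KO replicate 1 the lowest. The log2 fold change was -0.31 (SE 0.16, limma adjusted p = 0.51), and over all alternatives the adjusted p ran from 0.018, without KO replicate 2, to 0.9999. KO replicate 2 alone gave -0.16 against WT (adjusted p = 0.73). In all 4 genes of this group the KO arrays thus lay wholly below the WT arrays, an order seen at 20.9% of all genes tested. Their median log2 fold change was -0.38 against -0.02 over all genes, and the members were named with earlier results of these data known, so no test is put on the group.

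**Figure D2:**
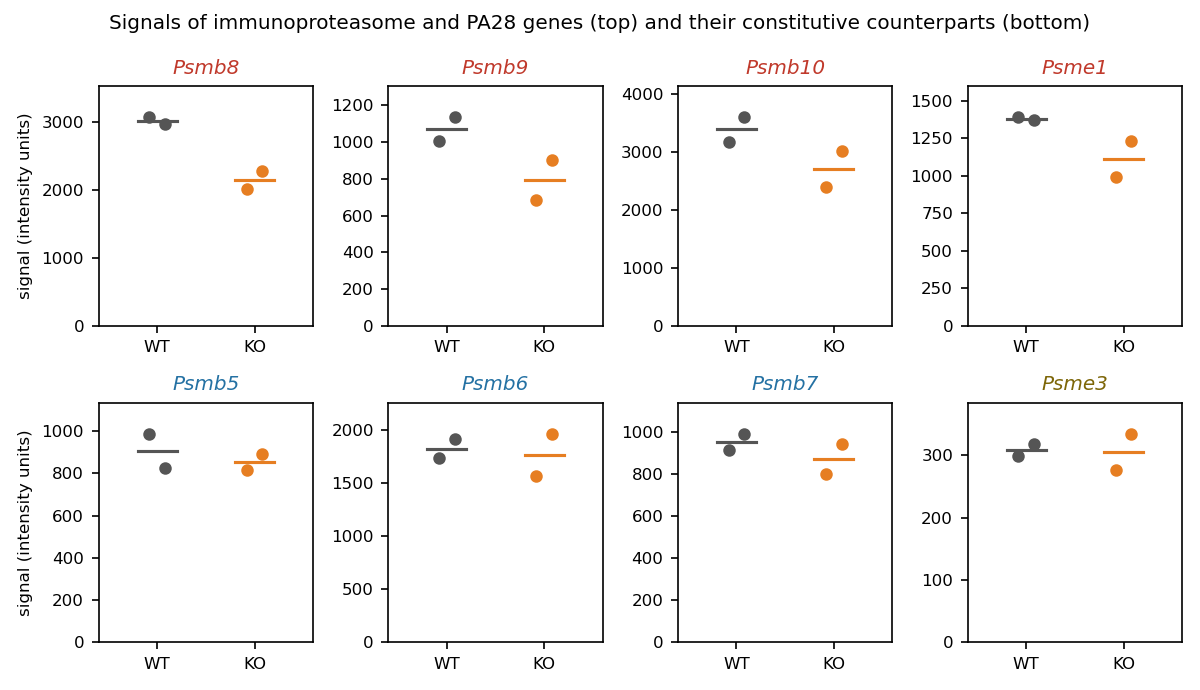
Signal in intensity units (vertical axes, each from 0) in WT and KO, with a point for each array and a line at the mean of 2 arrays. The top row holds the immunoproteasome and PA28 genes. The bottom row holds the replaced subunits Psmb5, Psmb6 and Psmb7, and Psme3, which is shown only as a relative of Psme1. Psmb8, Psmb9, Psmb10 and Psme1 show no overlap between genotypes, whereas the arrays of Psmb5, Psmb6, Psmb7 and Psme3 overlap.

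Because these genes share an induction by interferon, their promoters were searched for its usual motifs. The windows, from RefSeq on build GRCm38.p6, run from 250 bases before to 50 bases after the gene start, on the strand of the gene. Searched on both strands, the letters GAAANNGAA, the core of the interferon-stimulated response element, occur in 8.56% of all 32851 windows, and TTCNNNGAA, the gamma-activated site, in 8.30%. Capitals below mark a match, and no match of either motif overlapped the other. Psmb8 (chr17:34197945-34198244, plus strand) and Psme1 (chr14:55578244-55578543, plus strand) are shown because they hold a match, and Psmb9 (chr17:34187281-34187580, minus strand) because 275 bases of its window are also the window of Tap1, which is read in the opposite direction.
Psmb8: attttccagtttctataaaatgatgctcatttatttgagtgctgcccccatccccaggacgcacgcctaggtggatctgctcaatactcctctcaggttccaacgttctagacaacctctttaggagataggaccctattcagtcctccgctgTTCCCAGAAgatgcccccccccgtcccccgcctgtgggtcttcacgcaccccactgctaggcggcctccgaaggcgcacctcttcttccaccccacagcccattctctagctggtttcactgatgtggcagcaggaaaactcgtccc
Psme1: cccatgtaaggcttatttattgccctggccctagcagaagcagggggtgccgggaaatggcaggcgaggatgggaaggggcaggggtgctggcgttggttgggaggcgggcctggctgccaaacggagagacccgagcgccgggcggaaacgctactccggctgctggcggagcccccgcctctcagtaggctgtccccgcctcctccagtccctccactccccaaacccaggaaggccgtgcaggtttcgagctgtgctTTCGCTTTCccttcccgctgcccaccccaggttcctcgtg
Psmb9: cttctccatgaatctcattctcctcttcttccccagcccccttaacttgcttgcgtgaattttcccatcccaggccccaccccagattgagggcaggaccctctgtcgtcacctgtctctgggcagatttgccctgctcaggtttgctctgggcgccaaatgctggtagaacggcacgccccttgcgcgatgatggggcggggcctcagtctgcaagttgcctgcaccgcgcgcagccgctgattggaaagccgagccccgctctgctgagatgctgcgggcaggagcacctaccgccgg

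In Psmb8 the gamma-activated letters TTCCCAGAA lie 97 to 89 bases before the gene start. In Psme1 the response element letters are on the other strand, so the window shows them as TTCGCTTTC, 11 to 19 bases after the gene start. The windows of Psmb9 and Psmb10 hold neither set of letters. By gene, 9.76% of all genes with a window hold the response element core and 9.55% the gamma-activated letters. Of 39 member genes with a window, 7 hold the response element core (Psmb3, Psmb4, Psmc2, Psmd4, Psmd9, Psme1 and Psmg4) and 3 the gamma-activated letters (Psmb8, Psmd2 and Psmg1). Each of the 4 groups held at least 1 match, and a match describes the letters only.

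The constitutive catalytic subunits were compared in the same way. Psmb5 read 987 and 828 in WT and 814 and 890 in KO, and the genotypes overlapped. Its log2 fold change was -0.08, with a 95% interval from -0.39 to 0.22. Psmb6 read 1734 and 1914 in WT and 1565 and 1964 in KO, so that KO replicate 2 was the highest of the 4 arrays, with a log2 fold change of -0.05 (interval -0.37 to 0.26). Psmb7 read 915 and 990 in WT and 800 and 939 in KO, also with overlap, at -0.13 (interval -0.44 to 0.17). Each of these intervals includes the change of Psmb10, at -0.33. Each also overlaps the intervals of Psmb8, from -0.80 to -0.18, and of Psmb9, from -0.74 to -0.13. A difference between these genes was not tested.

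A difference taken within an array removes a shift that all probe sets of the array share. A shift that varies with brightness can remain. The median log2 difference of KO replicate 2 from KO replicate 1 was 0.22 over the brightest decile of genes and -0.01 over the dimmest. The genes of a pair differ in brightness, with WT means of 3011 for Psmb8 and 907 for Psmb5. The log2 signal of Psmb8 minus that of Psmb5, set to a mean of 0 over the WT arrays, was -0.10 and 0.10 in WT and -0.43 and -0.38 in KO. Psmb9 against Psmb6 gave -0.02 and 0.02 in WT and -0.41 and -0.35 in KO. For Psmb10 against Psmb7 the WT values were -0.03 and 0.03 and the KO values -0.24 and -0.14. Psme1 was set against Psme3, which encodes the nuclear relative of the PA28 subunits, and gave 0.06 and -0.06 in WT and -0.32 and -0.27 in KO. In each of the 4 pairs both KO arrays lay below both WT arrays. All 4 induced genes also had this order taken alone, and its share among other pairs of genes was not counted. The KO arrays differed by 0.05 to 0.10 in the pairs, against 0.17 to 0.38 for the induced genes taken alone. The WT arrays, however, lay farther apart in the pair than in the induced gene alone for Psmb8 (0.20 against 0.05) and Psme1 (0.11 against 0.02). These within-array values are a description with no test, since 2 arrays against 2 cannot give an exact permutation p near the threshold and the pairs were picked for their roles.

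**Figure D3:**
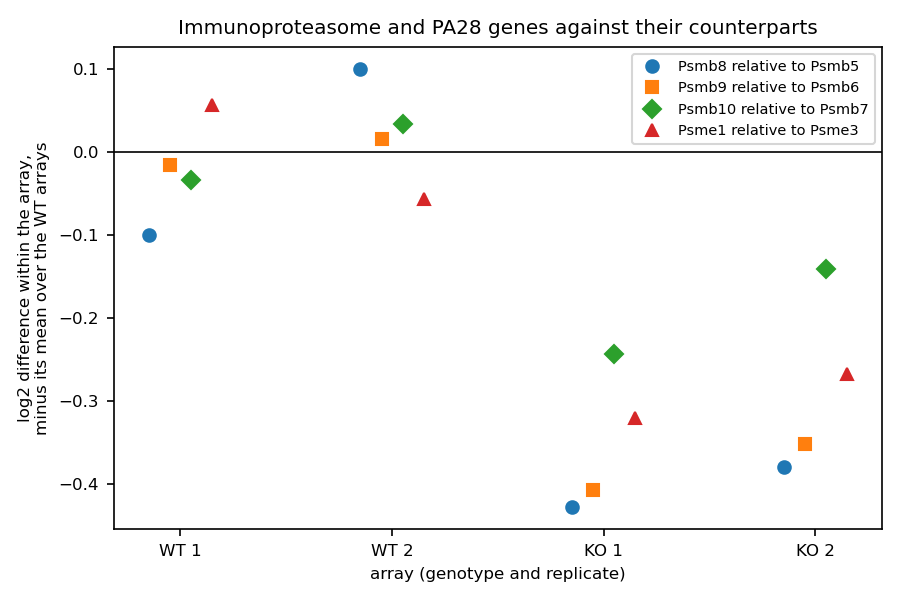
Log2 difference within each array between an immunoproteasome or PA28 gene and the gene it was set against, less its mean over the WT arrays (vertical axis), for the 4 arrays (horizontal axis). The KO arrays lie between -0.43 and -0.14 and the WT arrays between -0.10 and 0.10.

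The α ring of the core, which gates the entry to the barrel, had 7 members, all with a negative log2 fold change, against 57.7% of all genes tested. Psma5 differed most among constitutive subunits, at 1256 and 1310 in WT and 884 and 1088 in KO. The gap between the lowest WT and the highest KO array was smaller than that between the KO arrays. Its log2 fold change was -0.38 (SE 0.16, limma adjusted p = 0.25), and over all alternatives the adjusted p ran from 0.00375 to 0.9999, with 0.0052 without KO replicate 2 and 0.52, at -0.23, without KO replicate 1. Psma7 read 908 and 855 in WT and 667 and 783 in KO, at -0.28 (adjusted p = 0.62). Psma3 (-0.24), Psma2 (-0.19), Psma4 (-0.17), Psma6 (-0.09) and Psma1 (-0.05) followed, each within its neighbour's standard error. The members of the ring with both KO arrays below both WT arrays were Psma3, Psma4, Psma5 and Psma7. That order was seen at 20.9% of all genes tested.

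The β ring outside the catalytic subunits is structural. Psmb2 differed most, from 491 and 560 in WT to 401 and 472 in KO, at -0.26 in log2 (SE 0.14, adjusted p = 0.61). Psmb3 stood at -0.16, Psmb4 at -0.03 and Psmb1 at -0.006. A second, dimmer probe set of Psmb4 stood at -0.13. Psmb1 read 788 in both WT samples and 708.5 and 869 in KO, so the KO arrays lay on both sides of WT. Its second, dimmer probe set read 713 and 731 in WT and 634 and 689 in KO, with no overlap, at -0.12 in log2, so the value near 0 rests on 1 of 2 probe sets. Over the 14 constitutive core genes the median log2 fold change was -0.14, with 14 negative, 0 past the adjusted threshold and 1 with an unadjusted p under 0.05. Among all 5002 genes tested, 57.7% were negative and 473 had such an unadjusted p. The KO arrays lay wholly below the WT arrays at 6 of the 14, against 20.9% of all genes tested. The α ring had a median of -0.19 and the 7 constitutive β subunits of -0.08.

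The median of the immunoproteasome and PA28 genes was thus lower than that of the constitutive core genes by 0.24 on the log2 scale. Dropping single arrays moved this gap between 0.17 and 0.27. Averaged over its genes, the induced group relative to the constitutive core stood at -0.28 and -0.19 on the KO arrays and at -0.03 and 0.03 on the WT arrays.

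In the 19S group, 18 of 20 genes were bright enough to test, the chaperones Psmd5, Psmd9 and Psmd10 among them. Of the 18, 14 had a negative and 4 a positive log2 fold change, with a median of -0.08. Over all genes tested, 57.7% were negative. The ATPase ring, which unfolds substrates, had 5 tested members with a median of -0.09. Psmc2 stood lowest, at 750 and 782.5 in WT and 584 and 723 in KO, at -0.23 in log2 (adjusted p = 0.82). Psmc6 (-0.11), Psmc5 (-0.09), Psmc3 (-0.04) and Psmc1 (0.03) lay nearer to 0. A second, dimmer probe set of Psmc3 stood at -0.13. By the probe set that stood for the gene, both KO arrays were under both WT arrays for Psmc2, Psmc5 and Psmc6. This order was seen at 6 of the 18 tested 19S genes, against 20.9% of all genes tested.

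The non-ATPase genes of the cap went both ways. Psmd8 read 1073 and 1109 in WT and 1157 and 1277 in KO, with no overlap, at 0.15 in log2 (SE 0.16, adjusted p = 0.9997). It was the only member whose KO arrays both exceeded both WT arrays, an order seen at 11.3% of all genes tested. The chaperone Psmd9 stood at 0.11 and Psmd6 at 0.07. The lowest subunit was Psmd7, a partner of the deubiquitinase Psmd14, at 643 and 715 in WT and 523 and 644 in KO, where KO replicate 2 was just above WT replicate 1 (-0.22 in log2, adjusted p = 0.86). Psmd14 itself, which removes ubiquitin from the substrate, read 340 and 312 in WT and 311 and 322 in KO, at -0.04. The ubiquitin receptor Psmd4 read 932 and 1113 in WT and 884 and 1100 in KO, at -0.05.

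Genes that help to assemble the particle are spread over the Psmd and Psmg names. Psmd10 (gankyrin), a chaperone of the ATPase ring, read 315 and 301 in WT and 222 and 276 in KO. The genotypes did not overlap. The log2 fold change was -0.30 (SE 0.12, limma adjusted p = 0.25), and the adjusted p over all alternatives ran from 0.0092, without KO replicate 2, to 0.9999. Leaving out KO replicate 1 gave -0.15 (adjusted p = 0.71). The other chaperones of that ring gave -0.14 for Psmd5 and 0.11 for Psmd9. Of the chaperones of the core, Psmg4 read 431 and 428 in WT and 376 and 398 in KO (log2 fold change -0.14), Psmg1 stood at -0.13 and Psmg3 at 0.02.

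Among the other caps, Psme4 (PA200), which binds the core in place of 19S, read 326 and 323.5 in WT and 244 and 292 in KO. The close WT pair lay above both KO arrays, at a log2 fold change of -0.27 (SE 0.12, limma adjusted p = 0.39), with adjusted p-values over all alternatives from 0.036, without KO replicate 2, to 0.9999. With KO replicate 1 left out, Psme4 stood at -0.15 (adjusted p = 0.72). Psme3 read 298 and 319 in WT and 276 and 334 in KO, at -0.02, with the KO arrays on both sides of WT. The 5 tested genes of this group had a median of -0.13. Psme3ip1 stood at -0.18 (adjusted p = 0.93).

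**Figure D4:**
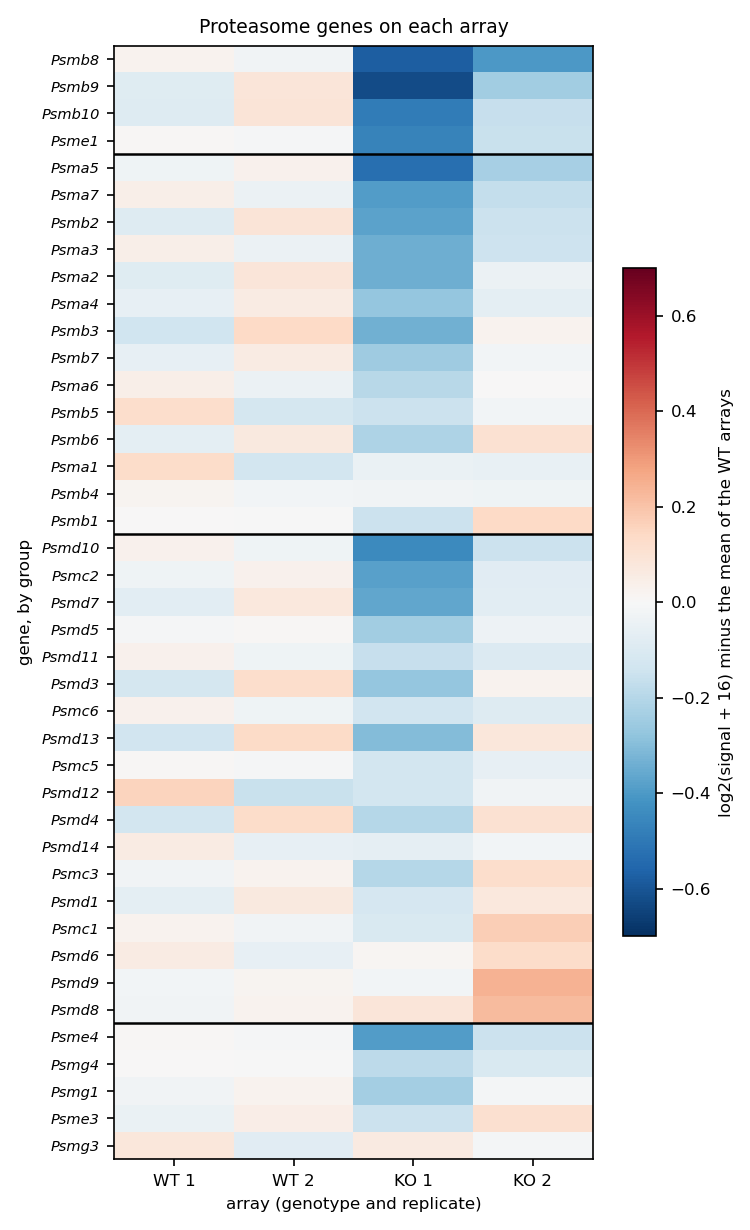
Log2(signal + 16) of 41 tested proteasome genes (rows, with lines between the 4 groups) on the 4 arrays (columns), as the difference from the mean of the WT arrays (colour, blue for lower). KO 1 is below WT at most genes in every group, and it is below both WT arrays at 52.8% of all genes tested. KO 2 is below both WT arrays at all 4 genes of the top group and at 14 of the other 37, against 33.3% of all genes tested.

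Dim probe sets were set aside from these counts. Psmc4 (98.0 and 110.5 in WT, 98.4 and 95.2 in KO), Psmd2 (72.6 and 84.6, then 78.0 and 92.0), Psmg2 (90.7 and 82.0, then 85.5 and 103.9) and Psmc3ip (80.1 and 98.1, then 81.6 and 81.8) were below the antisense median on at least 1 array, so they bound these genes only. The 49 other member probe sets were above it on all arrays. For the 6 genes with more than 1 tested probe set, namely Psmb1, Psmb4, Psmb5, Psmc3, Psmd11 and Psmg3, the probe sets of a gene had the same sign and none passed. The probe sets used for Psma3, Psmb4, Psmb7, Psmc3 and Psmd12 carry the suffix f and that of Psmb5 the suffix s, by which the maker marks probes shared within a family of like sequences, so their signals may include related transcripts.

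The KO arrays did not match each other. Of 42 tested member genes, 18 had both KO arrays below both WT arrays, an order shared by 20.9% of all genes tested. Of the 42, 36 were lower on KO replicate 1 than on both WT arrays, against 52.8% of all genes tested, and 18 were lower on KO replicate 2, against 33.3%. The median log2 difference of KO replicate 2 from KO replicate 1 was 0.23 over the members, 0.12 over all genes tested and 0.22 over the brightest decile, to which 14 of the 42 belong. The 9 spike-in control probe sets, bacterial and phage transcripts added to every hybridization, differed by 0.25 in the same direction, and by 0.15 between WT replicate 2 and WT replicate 1. Between genotypes the spike-ins differed by -0.05. With arrays scaled to them, the medians were -0.33 for the immunoproteasome and PA28 genes, -0.09 for the constitutive core and -0.03 for the 19S cap, and Psmb8 (adjusted p = 0.028) and Psmb9 (0.041) passed. Without KO replicate 1 the same medians of the unscaled values were -0.20, -0.036 and 0.0036, so the 19S median changed sign. The part of this array difference in the proteasome values was not tested.

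**Figure D5:**
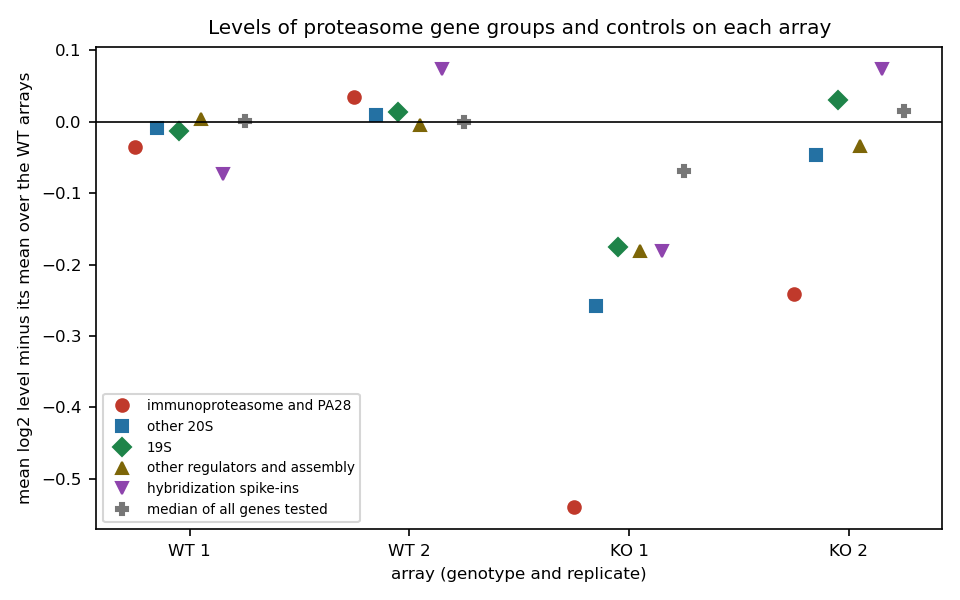
Mean log2 level of each proteasome gene group, of the spike-in controls and the median of all genes tested on each array, less the mean of the WT arrays (vertical axis). The immunoproteasome and PA28 genes stand at -0.54 on KO 1 and -0.24 on KO 2, and the constitutive core at -0.26 and -0.05, while the spike-ins stand at -0.18 and 0.07.

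Genes that act with the proteasome but carry other names were read from a separate list. Of 15 tested partners, 0 passed, 9 had a negative and 6 a positive log2 fold change, and the median was -0.03. Over all genes tested, 57.7% were negative and the median was -0.02. Pomp, which completes the core, read 1154 and 1224 in WT and 968 and 1208 in KO, at -0.13. Nfe2l1, the factor that raises proteasome genes when the particle is blocked, read 814.5 and 891 in WT and 683 and 739 in KO, with no overlap (log2 fold change -0.26, adjusted p = 0.73). Ecpas, which binds 26S particles, stood at -0.28 (adjusted p = 0.21).

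Peptides made by the immunoproteasome are carried to MHC class I by the transporter of Tap1 and Tap2. On chromosome 17 these genes alternate with the induced subunits, in the order Psmb9, Tap1, Psmb8, Tap2. Tap1 read 1910.5 and 1952 in WT and 1050 and 1324 in KO, and fell by 0.70 on the log2 scale (SE 0.16, limma adjusted p = 0.00056). Tap2 read 351 and 410.5 in WT and 252 and 301 in KO, and fell by 0.44 (SE 0.13, adjusted p = 0.018). With 1 WT array left out, Tap1 no longer passed (limma adjusted p = 0.79 and 0.93). Tap2 did not pass after median centring (0.060), with spike-in scaling (0.12), or when WT replicate 1 (0.38), WT replicate 2 (0.9999) or KO replicate 1 (0.19) was left out. Of 9 tested genes of class I antigen processing, these 2 were past the threshold and 7 were not, with a median of -0.19. Of 11 genes of interferon signalling, 4 fell (Irf1, Irf8, Jak2 and Socs1), 0 rose and 7 did not pass, with a median of -0.20. Among those that did not pass, 4 had a positive log2 fold change: Ifngr1 (0.18), Ifnar1 (0.14), Ifngr2 (0.09) and Irf9 (0.006). For both lists the background is that of all genes tested, where 2.66% passed as lower and 1.06% as higher, with a median of -0.02. Irf1 and Irf8 did not pass when 1 WT array was dropped (adjusted p from 0.079 to 0.31), and Jak2 missed it with spike-in scaling (0.22). Irf1, an activator of immunoproteasome genes, went from 2592 and 2630 in WT to 1221 and 1460 in KO.

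In bulk cells, a smaller share of a cell type and less RNA per cell cannot be told apart. Immunoproteasome transcripts are also abundant in lymphocytes and dendritic cells, so markers of these are given. The summed signal of 9 T and NK cell markers was 806 and 814 in WT and 818 and 745.5 in KO, with 6 of 9 below the antisense median on all arrays. For 7 B cell markers it was 796 and 817 in WT and 857 and 809 in KO, with 3 below. For 5 dendritic cell markers it was 1404 and 1401 in WT and 1233 and 1384 in KO, with 2 below, and 0 of the 8 tested genes in these lists passed. Of 3 tested neutrophil markers 1 fell (S100a8, from 530 to 350.5). All 3 had both KO arrays below both WT arrays, an order seen at 20.9% of all genes tested. That list of 8, S100a8 included, summed to 1217 and 1285 in WT and 1051.5 and 1052 in KO, with 4 below the antisense median on all arrays. Of its untested markers, Ly6g and Ngp had both KO arrays above both WT arrays, and Mpo had both below. With 1 WT array dropped, S100a8 did not pass (adjusted p = 0.41 and 0.75). Of 6 tested fibroblast and mesothelial markers 1 rose (Dcn, from 589 to 1002). All 6 had a positive log2 fold change (median 0.31), as had 2114 of all 5002 genes tested. An unadjusted p under 0.05 was seen at 5, against 473 of the 5002. At 5 both KO arrays were above both WT arrays, against 11.3% of all genes tested. That list of 9, Dcn included, summed to 2229 and 2150 in WT and 2750 and 3128 in KO, with 2 below the antisense median on all arrays. Dcn did not pass with 1 WT array dropped, at log2 fold changes of 0.82 and 0.69. The part of such cells in the proteasome values was not tested.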

How the data were processed

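RNA of elicited macrophages was read on 4 one-colour Affymetrix arrays, grouped by the genotype in the sample titles. The authors deposited a linear intensity for each probe set. The sources used here do not give their summary and scaling steps. Of 12488 rows, 1780 were blank and 59 were controls, and 9389 of the others had 1 gene in the platform annotation.

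Values were used as deposited, since array medians of log2(intensity + 16) differed by less than 0.1. Probe sets above the 40th percentile of mean log2 intensity (about 111 units) were tested with limma 3.58.1 in R 4.3.3 (lmFit, eBayes with trend, two-sided, adjusted p under 0.05). The prior degrees of freedom were infinite, so a gene that varies more than its brightness predicts passes too easily. The brightest tested probe set stood for its gene. The fit was tested on simulated data.

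Named were the immunoproteasome and PA28 genes, the catalytic subunits they replace, members past the threshold, the 3 largest changes each way in each other group, and members below the filter. Further members were picked as illustrations with their values known. Members and lists were chosen with earlier results of these data known, and Psmc3ip and Psme3ip1 were set apart from the groups. Alternatives changed the normalization, filter, pseudocount (1 or 64), moderation, threshold, block, probe set rule and arrays used. Spike-in scaling and a filter on the linear mean were added after seeing the data. Plots used matplotlib 3.10.9.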

Additional observations from a re-analysis of the deposited data

How the results depend on the processing

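The count of probe sets past the threshold, 227 (65 higher and 162 lower in KO), was 419 after quantile normalization (170 higher, 249 lower), 90 with a 1.5-fold rule, 137 with spike-in scaling, 0 without moderation (388 at an unadjusted p under 0.05, 1 of them a member) and 54 to 327 with an array left out. With the replicate number as a block it was 480. The labels do not say that a number marks a shared mouse or day; deviations of same-numbered arrays correlated at 0.42 over tested probe sets, and the block raised the member probe sets past the threshold from 0 to 7.

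Without the block, member probe sets past the threshold were 5 after quantile normalization, 3 without trend, 2 with spike-in scaling, 1 with the 60th percentile filter, a pseudocount of 1, robust moderation, an adjusted p of 0.1 or the filter on the linear mean, and 0 to 7 with an array left out. Of the 4 immunoproteasome and PA28 genes, 4 passed as lower after quantile normalization and with the block, 2 without trend and with spike-in scaling, 1 with the 60th percentile filter, a pseudocount of 1, robust moderation, an adjusted p of 0.1, the mean of probe sets or the filter on the linear mean, and 0 to 4 with an array left out. Of the constitutive core genes, 1 passed after quantile normalization, without trend and with the block, and 0 to 1 with an array left out. Of the 19S genes and of the other regulators and assembly factors, 1 each passed with the block and 0 to 1 with an array left out.

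With an array left out, the median log2 fold change ran from -0.53 to -0.20 for the immunoproteasome and PA28 genes, from -0.26 to -0.036 for the constitutive core, from -0.15 to 0.0036 for the 19S cap, and from -0.18 to -0.013 for the other regulators, and the gap between the first 2 groups from -0.27 to -0.17. The 19S median of 0.0036, without KO replicate 1, was the only group median to change sign under the alternatives run. With an array left out, 17 of the 42 tested member genes changed sign, 11 of them without KO replicate 1, and 0 were immunoproteasome or PA28 genes. Of the 20 members followed under all alternatives, those that changed sign, none past the threshold, were Psmb5 without WT replicate 1 (0.041, the others down to -0.21), Psmb6 without WT replicate 2 (0.016) or KO replicate 1 (0.11, the others down to -0.22), Psmd9 without KO replicate 2 (-0.017, the others up to 0.24), and Psmg3 without WT replicate 2 (-0.056) or KO replicate 1 (-0.013, the others up to 0.11). In the fits that leave out an array, 1 genotype has a single array, assumed to vary like the other.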
